A study of Homo sapiens with 4 samples.

Results

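ATAC-seq peak lists of human pancreatic progenitors (PPs) were searched for promoters that were called accessible with I-BET151 and not with DMSO. Peaks of the 4 lists were merged wherever they overlapped by 1 bp or more. A merged region was kept when it held a peak of both I-BET151 lists and no peak of either DMSO list, and when it reached within 1 kb of the start of a protein-coding gene (GENCODE release 44). The search returned 1497 regions, hereafter I-BET151-only promoters, out of 13645 promoter regions and 164301 merged regions in all. They made up 11% of the promoter regions and reached the starts of 1566 of 20033 protein-coding genes (7.82%). Because the presence of peaks chose the regions, their peak heights are given as a description and carry no test.

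The PPs were derived from MEL1 INS GFP/W, an established human embryonic stem cell line with a GFP reporter at 1 copy of the insulin gene, so all libraries share that genotype. All cells were grown in EF6 medium, which is DMEM with B27, EGF, bFGF and 616452, an inhibitor of TGFβ signalling. For 7 days they received either DMSO (2 libraries) or 1 μM I-BET151 (2 libraries, EF6I medium), and each library was made from 50000 cells. Nothing in the labels says that the 2 libraries of a condition came from separate cultures, so the spread between them may be technical. The comparison asks where chromatin accessibility differed when the inhibitor was present.

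ATAC-seq marks open chromatin through the Tn5 transposase, which inserts sequencing adapters where DNA is free of nucleosomes. Promoters of transcribed genes usually have such a stretch just upstream of the start site. Many lie in CpG islands, which tend to be accessible in many cell types, whereas promoters poor in CpG are more often open in particular tissues. BET proteins bind acetylated histones through bromodomains and help RNA polymerase II to leave promoters, and I-BET151 occupies those bromodomains. PDX1, NKX6-1 and SOX9 are transcription factors that mark pancreatic progenitors, and Notch signalling restrains their endocrine differentiation.

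CTCF is the insulator protein at which cohesin loops stop. Its consensus lay within 100 bp of the peak summit in 21 I-BET151-only promoters (1.40%), against 0.667% of all promoter regions and 0.6% of those called in all 4 lists. The 6 with the highest enrichment outside exons are given, with 1 chromosome left out of the choice, so that the motif can be read in its promoter. Each is given 5′ to 3′ from hg38 on the strand of the motif, with the CTCF consensus in capitals and 25 bases on either side.
GRIK4: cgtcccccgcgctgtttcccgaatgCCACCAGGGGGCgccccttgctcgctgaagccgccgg
PCP4: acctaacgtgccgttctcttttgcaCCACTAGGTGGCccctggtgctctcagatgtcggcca
CXCL12: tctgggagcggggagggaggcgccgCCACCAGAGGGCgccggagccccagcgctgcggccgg
GPR37L1: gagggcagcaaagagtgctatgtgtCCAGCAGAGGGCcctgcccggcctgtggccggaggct
EHHADH: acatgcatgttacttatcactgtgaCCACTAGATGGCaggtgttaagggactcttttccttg
NOG: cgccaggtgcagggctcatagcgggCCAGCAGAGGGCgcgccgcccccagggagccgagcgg
The GRIK4 stretch lay at chr11:120511209-120511270 (plus strand), its motif centred 506 bp upstream of the start of this glutamate receptor subunit gene. The PCP4 stretch lay at chr21:39867282-39867343 (plus strand), its motif centred 125 bp upstream of the start of a calmodulin-binding neuronal protein gene. The CXCL12 stretch lay at chr10:44386706-44386767 (minus strand), its motif centred 244 bp upstream of the start of a chemokine gene. The GPR37L1 stretch lay at chr1:202122762-202122823 (plus strand), its motif centred 93 bp upstream of the start of an orphan receptor gene. The EHHADH stretch lay at chr3:185280926-185280987 (minus strand), its motif centred 1033 bp inside the gene of a peroxisomal fatty acid oxidation enzyme. The NOG stretch lay at chr17:56592631-56592692 (plus strand), its motif centred 1037 bp upstream of the start of noggin, a secreted BMP antagonist. At GRIK4, GPR37L1, EHHADH and NOG a DMSO peak also lay elsewhere in the 1 kb window, outside the region called only with I-BET151.

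The promoter of PDX1 is shown because the gene marks the cells studied, a choice made after its values were seen. The stretch printed runs from the left edge of the called region to the base before the gene start, chr13:27919841-27919999 of hg38 on the plus strand, with the CCAAT box in capitals where it was found.
PDX1: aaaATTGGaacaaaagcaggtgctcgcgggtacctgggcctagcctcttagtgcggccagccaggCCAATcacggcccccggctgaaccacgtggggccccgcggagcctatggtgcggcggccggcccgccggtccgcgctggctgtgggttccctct
A CCAAT box stood once on each strand in these 159 bases, and none of the other 17 motifs searched was found in them. That says only that those letters are absent from this stretch.

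The presence of a peak in a list depends on the depth behind it. With DMSO there were 82568 and 38295 peaks on an estimated 38.7 and 36.6 M reads, and with I-BET151 there were 84995 and 111324 peaks on 12.5 and 16.0 M reads. The DMSO replicate 2 list stood apart with the fewest peaks, although its estimated depth was close to that of DMSO replicate 1. A peak was found within 1 kb of 57.4% and 52.7% of the gene starts with DMSO (mean 55.0% ± 3.36, SD, n = 2) and of 62.6% and 66.8% with I-BET151 (64.7% ± 3.00, SD, n = 2). The groups differed by 9.67 percentage points (exact permutation test, two-sided, p = 0.333, the smallest it can give for 2 libraries against 2). The starts counted include those of the I-BET151-only promoters, which were chosen by the same peaks. The difference is therefore context and gives no separate support for that set. The difference was 3.31 with equal numbers of peaks per list and 16.6 at −log10 p of at least 10. Of 10 progenitor markers, 7 and 6 had a peak at the start with DMSO and 9 and 9 with I-BET151, with PTF1A at none in any list. Of 5 stem cell markers 1 and 1 had a peak with DMSO and 1 and 2 with I-BET151, with POU5F1 and NANOG at none.

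I-BET151-only promoters were part of a wider pattern. Genome-wide, the same pattern of peaks was found at 17% of merged regions, and promoters held 5.37% of those regions against 8.30% of all merged regions. In the opposite direction, 127 promoter regions (0.931%) had a peak with DMSO in both libraries and none with I-BET151. Another 8665 promoter regions (63.5%) were called in all 4 lists. Promoter regions called in a single list numbered 984 for I-BET151 replicate 2, 287 for I-BET151 replicate 1, 752 for DMSO replicate 1 and 48 for DMSO replicate 2. Within the replicate 1 libraries, 2050 promoter regions were called with I-BET151 alone and 1222 with DMSO alone, whereas within replicate 2 the numbers were 3287 and 186. Pairs follow the labels, and the numbers in the peak names of the lists do not match those of the labels throughout. In the crossed pairs the numbers were 2783 and 910 (DMSO replicate 1 with I-BET151 replicate 2) and 2413 and 357. The excess was on the I-BET151 side in all of these pairs but of unequal size, and the part played by the few peaks of the DMSO replicate 2 list was not tested. Without that list the rule returned 1760 regions.

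The name of the set holds for the region called rather than for the whole promoter window. Of the 1566 genes, 1317 had no DMSO peak anywhere within 1 kb of the start, and 249 had one beside the I-BET151-only region. The regions had a median distance of 6839 bp to the nearest region called with DMSO, 576 of them were over 10 kb away from one, and 292 were within 1 kb of one. MNX1, a homeobox gene of the early pancreas, is an example of the last kind, with its region centred 1108 bp upstream of a start that had a peak in all 4 lists. PABPC5, a poly(A)-binding protein gene on chromosome X, was at the other end, 2237749 bp from the nearest region called with DMSO.

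I-BET151-only promoters had modest peaks. Their fold enrichment, the pileup of reads at the summit over the local background, had a median of 5.20 in I-BET151 replicate 1 (2.67 to 19.2) and 5.53 in I-BET151 replicate 2 (2.09 to 23). The medians at the promoters called in all lists were 9.84 and 10.6 in the same I-BET151 lists, and 5.61 and 5.38 in the DMSO lists. The pileup had a median of 15 reads (6 to 56) in I-BET151 replicate 1 and 25 reads (7 to 72) in I-BET151 replicate 2, against 40 and 76 reads at the shared promoters. Ranked by fold enrichment within their own list, the I-BET151-only promoters had a median percentile of 43.7 and 41.1, and the shared promoters 87.7 and 86.8. In both lists at once, 451 I-BET151-only promoters were over percentile 50 and 18 were in the top 10% of peaks. Across them the fold enrichments of both lists were alike in order (Pearson r = 0.73 on the log2 scale, Spearman rho = 0.71, n = 1497 regions that share the same libraries and are not independent), less so than at the shared promoters (0.87 and 0.87, n = 8665).

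The lists hold no value where no peak was called, so no fold change against DMSO can be given for a region. The lowest pileup called at all was 10 reads in DMSO replicate 1 and 11 in DMSO replicate 2, or 0.259 and 0.301 reads per M reads. Per M reads, the lowest pileups called in the I-BET151 lists were higher than that (0.401 and 0.375). Any I-BET151 peak therefore exceeds these lowest DMSO pileups on this scale. Pileups at the shared promoters were themselves higher in the I-BET151 libraries, with a median ratio to DMSO of 1.12 for replicate 1 and 2.18 for replicate 2 despite fewer reads. Divided by those ratios, a step added after the values were seen, the pileups of the I-BET151-only promoters had medians of 13.3 and 11.5 reads. On that scale 1108 (74.0%) reached the lowest DMSO pileup in replicate 1 and 828 (55.3%) in replicate 2, and 782 (52.2%) did so in both. The other 715 regions were under it in at least 1 pair, so for them the pileup on that scale was lower than at any peak of the DMSO list of that pair.

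The weakest members were TSHZ1, SCAF11 and PTMS. At TSHZ1, a zinc finger homeobox gene, the fold enrichment was 3.92 and 2.09, with pileups of 28 and 27 reads. At SCAF11, which encodes a splicing-related protein, it was 2.68 and 2.21, with 18 and 30 reads. At PTMS, which encodes parathymosin, it was 2.86 and 2.27, with 26 and 45 reads. At the edge of the 1 kb window, the regions of ISCU and PTCHD1 began 987 bp from the gene start and that of SPAAR 999 bp. Just beyond it lay a region 1001 bp from the start of NPAS3. The fold enrichments were 5.68 and 5.95 at SPAAR and 4.28 and 3.60 at NPAS3, so regions on either side of the edge had peaks of a similar range.

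The 15 strongest I-BET151-only promoters, by the lower of the 2 fold enrichments, belonged to genes of very different kinds. CCDC14, which encodes a centriolar satellite protein, had the highest peak, with a fold enrichment of 19.2 and 23, pileups of 36 and 67 reads and a summit 14 bp upstream of the start. SI, the brush-border enzyme sucrase-isomaltase of the intestine, had a fold enrichment of 15.2 and 14.7, with 31 and 55 reads, 10 bp upstream of the start. It had no region called with DMSO within 110341 bp, and no CpG in the 500 bp either side of the start. TSPAN33, a tetraspanin, had 14.5 and 13.2, with 46 and 56 reads. At each of these genes the peak stood in the top 6% of both I-BET151 lists and was absent from both DMSO lists.

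Other regions among these 15 reached 2 genes at once. LRRIQ1 and the tetraspanin gene TSPAN19 shared a region with a fold enrichment of 12.2 and 12. ELAPOR1, a gene of secretory epithelia, and CFAP276, a gene of motile cilia, shared one with 11.9 and 13.8. SAMD9, an antiviral and growth-restraining factor, had 11.3 and 16.5 at a CpG-poor start. GAP43, a protein of growing axons, had 11 and 12.1, with 30 and 43 reads, 127 bp inside the gene. FANCC, a Fanconi anaemia DNA repair gene, had 11 and 11.5, but its canonical transcript starts far downstream, with the summit at -109236 bp from that start. Others were PEX5L, PABPC5, EEF2KMT, POMGNT2, CLPTM1L and MC5R, and PEX5L was only 49 bp from a region called with DMSO. Of the 15, 11 had a CpG-rich start, against 67.3% of all 1497 regions. The summit was within 250 bp of the start in 13 of the 15, and the median distance over all 1497 regions was 192 bp.

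Summits gathered at gene starts but less tightly than at shared promoters. The summit was a median of 192 bp from the gene start, and 475 regions (31.7%) had it within 100 bp. At the promoters called in all lists the median was 116 bp and the share 45.0%. The summit was upstream in 682 regions (45.6%) and downstream in 814, and 957 regions (63.9%) covered the start base itself. I-BET151-only promoters were also narrower, with a median width of 615 bp (260 to 2540) against 1061 bp. The summits of both I-BET151 lists were a median of 88 bp apart, and 899 regions (60.1%) had them within 100 bp of each other. By the canonical transcript of the nearest gene, the summit lay upstream in 911 regions (60.9%), in a UTR part of exon 1 in 259 (17.3%), in intron 1 in 209 (14.0%) and in the coding part of exon 1 in 86 (5.74%). The remaining regions lay in later exons, later introns or beyond the gene.

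**Figure D1:**
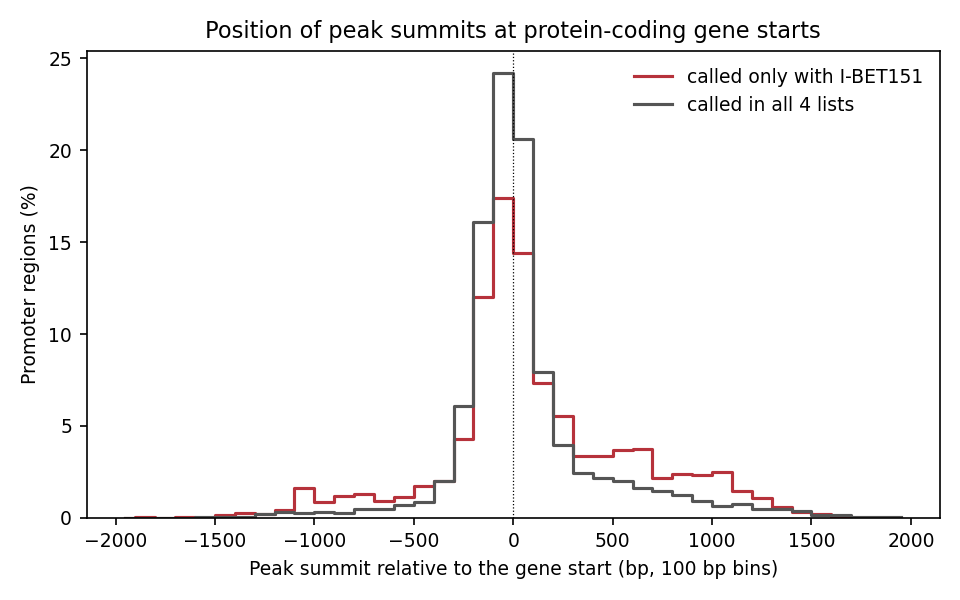
Position of the peak summit relative to the nearest protein-coding gene start (x axis, bp in 100 bp bins, negative is upstream) as the percentage of regions (y axis), for the 1497 I-BET151-only promoters and the 8665 promoters called in all 4 lists. Both profiles peak at the start, and the I-BET151-only profile is lower there and higher at 300 to 1100 bp inside the gene.

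A gene can have several promoters, and a region at the annotated gene start need not be the one in use. Of the 1317 genes without a DMSO peak in the window, 169 (12.8%) had their canonical transcript starting over 2 kb from the gene start, as did 13.8% of all protein-coding genes. At 107 of them (8.12% of the 1317) a DMSO peak stood at the canonical start, and at 82 the canonical start had a peak in all 4 lists. For these genes the I-BET151-only region lay at an alternative promoter. Starts shared by several genes were less frequent than elsewhere, with 106 I-BET151-only promoters (7.08%) reaching 2 or more protein-coding genes against 12.9% of all promoter regions. A lncRNA start lay in reach of 239 (16.0%), against 20.4% of all promoter regions.

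In CpG content, I-BET151-only promoters lay between shared promoters and gene starts without a peak, whereas their median G and C content of 63.9% was above both (61.9% and 50.7%). A start was counted as CpG-rich where the 500 bp either side held at least 50% G and C and at least 0.6 of the CpG expected from them. By this rule 1007 I-BET151-only promoters (67.3%, Wilson 95% interval 64.8 to 69.6, counting error only) were CpG-rich. The share was 83.3% at promoters called in all lists, 73.9% at all promoter regions, 37.8% at the 127 promoters called only with DMSO, and 18.2% at gene starts with no peak in any list. The 490 CpG-poor regions had a median width of 544 bp against 657 bp for the CpG-rich ones, and pileups of 14 and 23 reads against 16 and 27. Their fold enrichments were nearly the same, with medians of 5.20 and 5.57 against 5.20 and 5.51.

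**Figure D2:**
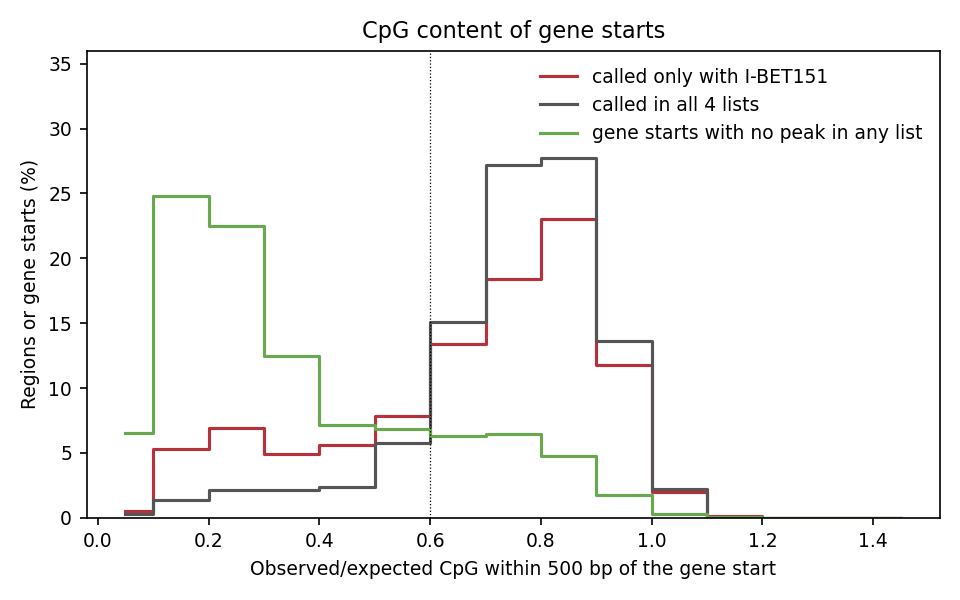
Observed over expected CpG within 500 bp of the gene start (x axis, bins of 0.1, dotted line at 0.6) as the percentage of regions or gene starts (y axis), for I-BET151-only promoters, promoters called in all 4 lists and gene starts with no peak in any list. I-BET151-only promoters have their main mode with the shared promoters and a second, smaller one at low CpG, and their median is 0.737.

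Exact matches to 18 motifs were counted on both strands within 100 bp of the summit. Motifs of promoters that are active in most cells were less frequent in I-BET151-only promoters than in shared ones. The ETS core CCGGAA was in 10.8%, against 17.8% of all promoter regions and 22.9% of those called in all lists. The CCAAT box was in 18.2%, against 25.6% and 29.7%, the NRF1 site GCGCATGC in 1.34%, against 2.69% and 3.66%, and the cAMP response element TGACGTCA in 0.868%, against 1.79% and 2.29%. The GC box GGGCGG was in 53.8%, against 55.3% and 63.2%. YY1 (ATGGCGGC, 2.0% against 2.84%) and E2F (TTGGCGC, 2.0% against 3.20%) were lower than in all promoter regions as well. The RBPJ letters GTGGGAA, those of the Notch effector, were in 2.61% against 3.77%.

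Sites of factors that act in particular tissues were at shares close to those of all promoter regions, a set that includes the I-BET151-only promoters. Most were above the shares at promoters called in all lists, and none of these shares was tested. The GATA letters AGATAA were in 3.87% of I-BET151-only promoters against 3.41% of all promoter regions, and those of SOX (ACAAAGG) in 2.94% against 2.66%. ONECUT, whose core ATTGAT was searched, was in 1.87% against 1.97%, and TEAD, searched as ACATTCC, in 1.80% against 1.82%. The core TAATTA of homeobox factors was in 1.2% against 0.997%. The letters TATAAA of the TATA box were in 3.54% against 2.76%. AP-1 (TGANTCA, 2.67% against 3.35%) and forkhead (TGTTTAC, 0.935% against 1.49%) were lower. At promoters called in all lists the shares were 2.2% for GATA, 2.39% for SOX, 1.49% for ONECUT and 1.49% for TEAD. They were 0.577% for the homeobox core, 1.95% for the TATA box and 2.4% for AP-1. Each of these was under the share in I-BET151-only promoters, whereas forkhead, at 1.27%, was over it. HNF1 (GTTAATNATTAA) was at 0 of 1497 regions and in 0.0293% of all promoter regions, too rare to compare. Several of these letters were found mainly in the CpG-poor group. GATA was in 8.57% of the CpG-poor and 1.59% of the CpG-rich I-BET151-only promoters, AP-1 in 5.71% and 1.19%, ONECUT in 4.08% and 0.794%, and TEAD in 3.67% and 0.894%. A match is a description of the letters and not of binding.

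CTCF was at a higher share in I-BET151-only promoters than in all promoter regions, as given above, and in 2.45% of the CpG-poor against 0.894% of the CpG-rich ones. The 21 regions were not the strongest of the set, with median fold enrichments of 6.29 and 4.79. HLA-B, an antigen-presenting molecule, had the highest of them, with 9.36 and 11.1 and pileups of 17 and 27 reads. GRIK4 had 7.75 and 8.41 (21 and 35 reads), PCP4 8.66 and 7.63 (21 and 21 reads) and CXCL12 6.98 and 7.79 (24 and 44 reads). GPR37L1 had 7.82 and 5.59, EHHADH 7.14 and 5.09, and NOG 6.44 and 5.07. The CTCF share was 1.07% at −log10 p of at least 10 and 0.992% with equal numbers of peaks per list. Without I-BET151 replicate 1 it was 0.766% of 2481 regions, near that of all promoter regions. That set also took in regions without a replicate 1 peak, and what lowered the share was not tested.

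Genes were grouped by their roles in 14 lists and 13 families, each read against the 7.82% of all protein-coding genes. Of 30 pancreatic progenitor factors, 6 (20%) had an I-BET151-only region and 19 (63.3%) had a peak at the start in all 4 lists, against 49.8% of all protein-coding genes. HHEX, a homeobox factor of the foregut and pancreas bud, had a fold enrichment of 6.83 and 6.82, with pileups of 24 and 37 reads. GATA4, a zinc finger factor of early endoderm, had 6.17 and 5.27, with 18 and 21 reads. PDX1 had 4.90 and 5.20, with 35 and 61 reads and a summit 43 bp inside the gene, within the UTR of exon 1 and just downstream of the sequence printed above. These 3 of the 6 genes had no DMSO peak in the window, as was the case for 84.1% of all 1566 genes. For PDX1, however, a region called with DMSO lay 1350 bp away. The GATA4 region is at an alternative start, since its canonical transcript starts 27243 bp away with a peak in all 4 lists. At MEIS1 (5.65 and 4.35), MNX1 (4.29 and 4.13) and FOXA3 (3.70 and 4.24) a DMSO peak stood elsewhere in the window, so the added region, and not the whole window, was called only with I-BET151.

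Of 41 Notch pathway genes 6 (14.6%) had an I-BET151-only region. None of the 6 had a DMSO peak in the window, as was the case for 84.1% of all 1566 genes. Among the receptors, NOTCH1 had a fold enrichment of 5.16 and 7.84, with 21 and 51 reads, with the summit upstream of the start, and NOTCH3 had 4.26 and 4.31, with 14 and 22 reads. The ligand gene DLL4 had 4.46 and 3.35, with 19 and 28 reads. LFNG, a glycosyltransferase that modifies the receptors, had 5.07 and 4.58. NUMBL, a Numb-like inhibitor of Notch, had the strongest peak of the list, with 10.1 and 10.7 and pileups of 35 and 55 reads. HES6, a member of the HES family that opposes HES1, had 6.78 and 5.91, with 31 and 48 reads. Peaks at the start in all 4 lists were found for 20 of the 41 genes (48.8%), close to the 49.8% of all protein-coding genes.

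Lists of other lineages also held I-BET151-only promoters. Of 37 neuronal genes 9 (24.3%) had one, the highest share of any list. In this list 27% of the starts had a peak in all 4 lists and 37.8% in none. Over all protein-coding genes these shares were 49.8% and 29.5%. Of the 9 genes, 8 had no DMSO peak in the window, near the 84.1% of all 1566 genes. Besides GAP43 these included the neurofilament genes NEFM (9.12 and 7.10) and NEFL (5.13 and 5.67), the transcription factors DLX1 (6.20 and 5.70) and NEUROG2 (5.08 and 6.25), and the synaptic genes SYN1 (4.40 and 4.76), SNAP25 (3.95 and 6.86) and NRXN2 (3.31 and 7.14). At NEFM a DMSO peak stood elsewhere in the window, with a region called with DMSO 273 bp away. The canonical start of SNAP25, 46435 bp away, had a peak in all 4 lists. Of 5 neuron markers, 2 had a peak at the start in each of the 4 libraries, and ELAVL3, ELAVL4 and STMN2 had none. The mesenchymal and matrix list had 4 of 28 (14.3%), namely SNAI1, a repressor of epithelial genes (6.09 and 5.33), COL6A1 (4.95 and 9.30), COL1A2 (4.81 and 4.25) and PDGFRB (3.53 and 3.53). Of these 28 genes, 42.9% had a peak at the start in all 4 lists and 28.6% in none. Of 6 mesenchyme markers, 1 and 2 had a peak with DMSO and 4 and 4 with I-BET151. Of 4 endothelial markers, 0 and 0 had a peak with DMSO and 1 and 2 with I-BET151, with PECAM1 and CDH5 at none. Of 5 liver markers the counts were 1 and 1 against 2 and 3, and of 4 intestine markers 3 and 2 against 2 and 3. Over all protein-coding gene starts the shares were 57.4% and 52.7% with DMSO and 62.6% and 66.8% with I-BET151. Whether other cells in the cultures had a part in these regions was not tested, and in bulk samples more cells with an open promoter and a more open promoter per cell cannot be told apart.

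Immune and interferon genes had 6 of 42 (14.3%), with 38.1% of the list called in all lists and 35.7% in none. Beside HLA-B these were HLA-C (5.72 and 7.55), the interferon regulator IRF7 (6.49 and 7.71, 23 and 48 reads), the chemokine CXCL1 (5.77 and 9.98) and the interferon-induced genes IFIT3 (5.60 and 4.57) and ISG15 (3.81 and 2.48). At ISG15 a DMSO peak stood elsewhere in the window, with a region called with DMSO 860 bp away. HLA genes are near-identical to each other, so their reads may have been placed at the wrong copy. Growth factor signalling had 7 of 53 (13.2%), of which 5 had no DMSO peak in the window (84.1% over all 1566 genes). Of the 53 genes, 56.6% were called in all lists and 17% in none. BTC, a ligand of the EGF receptor, had 5.51 and 6.35, GLI1, the transcription factor of the Hedgehog pathway, had 4.96 and 4.94 with 25 and 61 reads, and AXIN2, a feedback inhibitor of WNT signalling, had 5.16 and 4.86. TGFB1 had 4.19 and 4.01. At BTC and TGFB1 a DMSO peak stood elsewhere in the window, with regions called with DMSO 19 and 432 bp away. IHH, LEF1 and SMAD3 had values between 2.65 and 4.24.

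The other lists were near or under the share of all genes. Endocrine and islet genes had 3 of 34 (8.82%), namely GHRL, the ghrelin gene (7.09 and 9.30, 17 and 40 reads), SYT4, a granule synaptotagmin gene (4.50 and 5.92), and KCNJ11, the pore of the beta cell potassium channel (4.38 and 5.96). Of 9 endocrine markers, 1 and 0 had a peak at the start with DMSO and 2 and 2 with I-BET151. The share over all gene starts was also higher with I-BET151, as given above. INS, GCG, NEUROG3 and NKX2-2 had none in any list, while CHGA had one in both I-BET151 lists, NEUROD1 in the first and SST in the other. Cell cycle and replication genes had 4 of 42 (9.52%), E2F2, CDT1, CDKN1C and CCND1, and 34 of the 42 (81.0%) had a peak in all lists, against 49.8% of all protein-coding genes. Epithelial genes had 3 of 40 (7.50%), including OVOL2 (7.05 and 5.32), a keeper of epithelial identity. Liver and gut genes had 2 of 28, SI and TTR (6.54 and 6.21), where the canonical start of TTR, 34868 bp away, had a peak in DMSO replicate 1. BET proteins and known targets had 1 of 24, CDK9, the kinase that releases paused polymerase (5.29 and 8.76, 17 and 58 reads). Acinar and duct genes had 1 of 32 (SPP1) and pluripotency and germ cell genes 1 of 25 (MAEL). The canonical start of MAEL, 13698 bp away, had a peak in DMSO replicate 1. CTCF and cohesin genes had 1 of 18, CTCF itself, with 3.29 and 3.02 beside a DMSO peak in the window.

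Gene families ranged from 0 to 17.7%. Potassium channel genes had 17 of 96 (17.7%), with 18.8% of the family called in all lists and 40.6% in none, against 49.8% and 29.5% of all protein-coding genes. KCNN2 (9.78 and 8.25), KCNK5 (8.43 and 8.07), KCNH6 (7.54 and 9.60) and KCNS2 (6.01 and 6.64) led them, each without a DMSO peak in the window. The canonical start of KCNN2, 306144 bp away, had a peak in all 4 lists. Genes with the symbols of GABA and glutamate receptors had 6 of 47 (12.8%), among them the metabotropic receptor GRM2 (7.41 and 7.93). Solute carriers had 40 of 373 (10.7%), led by SLC24A3 (8.64 and 7.87), and transmembrane protein genes 21 of 238 (8.82%), led by TMEM86B (7.23 and 8.51). Zinc finger genes had 36 of 515 (6.99%), led by ZNF92 (10.1 and 11.7) and ZNF417 (9.88 and 13.9). Histone genes had 7 of 93 (7.53%), and HOX genes 3 of 39 (HOXD3, HOXA5 and HOXC5). The canonical start of HOXD3, 20695 bp away, had no peak in any list. At HOXA5 a DMSO peak stood elsewhere in the window, with a region called with DMSO 32 bp away. Mitochondrial ribosomal protein genes had 4 of 78, cytosolic ones 1 of 82 (RPL7A), clustered protocadherins 3 of 53, claudins 2 of 24, olfactory receptors 1 of 416 and keratins 0 of 55. Zinc finger, histone, protocadherin and olfactory receptor genes have near-identical copies, so single members of these families are uncertain.

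I-BET151-only promoters were spread over the autosomes, with 8.74% to 14.1% of the promoter regions of each and 10.7% of all autosomal ones. On chromosome X they were 83 of 452 promoter regions (18.4%), while the share called in all lists was 60.6% there and 63.6% on the autosomes. The regions were mostly single, since 236 (15.8%) had another within 50 kb, in 106 groups of which 18 had 3 or more. An example is the histone cluster on chromosome 6 with regions at H3C4, H1-3, H3C7 and H2BC9. Another lies on chromosome 1 at GPATCH4, BCAN, NES and CRABP2, of which NES encodes nestin, an intermediate filament protein of neural progenitors. These groups were picked after their genes were seen.

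Which genes entered the set depended on the threshold. With peaks of −log10 p of at least 5 in all lists, 1590 genes were found, of which 1458 were among the 1566 (93.1%). With −log10 p of at least 10, 2256 genes were found but 664 were among the 1566 (42.4% of these and 29.4% of those). At that threshold 631 of the 1497 regions (42.2%) met the rule. With each list cut to its 38295 strongest peaks, 563 genes were found, of which 390 were among the 1566 (24.9% of these). Under these stricter settings a region without a DMSO peak could be lost only through its own I-BET151 peaks, so strong regions stayed by construction. Of the progenitor and Notch genes, PDX1, HHEX, MNX1, NOTCH1, NUMBL and HES6 met the rule under both settings, GATA4, MEIS1 and LFNG at −log10 p of at least 10 but not with equal numbers of peaks, and FOXA3, NOTCH3 and DLL4 under neither. Of the neuronal genes named, GAP43 and NEFM met both, DLX1 the first of them, and NEFL, NEUROG2, SYN1, SNAP25 and NRXN2 neither. In the mesenchymal list SNAI1 met the first, and COL6A1, COL1A2 and PDGFRB met neither. BTC, TGFB1, IHH, LEF1, SMAD3, CXCL1, HLA-C, IFIT3, SYT4, KCNJ11 and CTCF also met neither. Without I-BET151 replicate 1 the set grew to 2481 regions and 2489 genes.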

How the data were processed

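The 4 ATAC-seq peak lists were used as deposited. Per the submitters' processing notes and the paper's methods, the authors aligned reads to hg38 with Bowtie2 2.2.5 and called peaks in each library alone with MACS2 2.1.2. For each peak the authors deposited a score (not used), a fold enrichment (ratio of pileup to local background, each plus 1), −log10 of the p-value and −log10 of the q-value, and a summit position. The methods state a p-value threshold of 1e-05, while the lists reach p-values above it at a q-value of 0.05. The shortest peak was 200, 233, 200 and 256 bp (DMSO 1, DMSO 2, I-BET151 1, I-BET151 2), so the read extension differed.

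Pileups were solved from fold enrichment and p-value (99.94 to 100% of the peaks of a list within a relative error of 0.001), and depth was estimated from the genome-wide background at the MACS2 default genome size, with which it would scale. Chromosomes 1 to 22, X and Y were used, and 640 peaks on other contigs were left out. Computation used Python 3.11.15, numpy 2.4.6, pandas 2.3.3 and scipy 1.17.1, and the scripts were tested on simulated data. Intervals cover counting error only.

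The regions, gene lists, families and motifs were chosen with earlier results of these data known. Named genes are the 15 regions with the highest lower fold enrichment, the members of each list (all up to 6, otherwise the 4 highest), up to 6 regions with the CTCF consensus, and the regions at the window edge. Further list members, regions with the weakest peaks and neighbouring groups were added after their values were seen. A few regions that this rule names are not reported here.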

Additional observations from a re-analysis of the deposited data

How the results depend on the processing

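The set of 1497 regions and 1566 genes was within 1.5 times under a 50% overlap, windows of 500 bp and 3 kb, summits in the window and both thresholds on −log10 p, although at 10 or more the genes were largely other ones. It was 504 regions and 563 genes with equal numbers of peaks per list, a smaller set by construction. Leaving out 1 library gave 1760 to 2481 regions and 1837 to 2489 genes. A replicate block, with both same-numbered pairs required, gives 1497 regions and 1566 genes by construction. The replicate 2 pair alone gave 3287 and 3284, and the replicate 1 pair alone 2050 and 2112. The pairing comes from the numbers in the labels only, and replicate differences at the 25627 regions called in all lists had a correlation of -0.17, so crossed pairs were added after seeing the data and gave 2783 and 2413 regions, with 2791 and 2492 genes. With the replicate block the gene start difference was 9.67 percentage points, and it was 7.30 to 12.1 when 1 library was left out. It was 3.31 with equal numbers of peaks and 16.6 at −log10 p of at least 10. Under every setting that kept all libraries p = 0.333 (exact permutation test), the smallest value it can give. The CpG-rich share (67.3%) was 74.4% at −log10 p of at least 10, 73.4% with equal numbers, 70.3% within 250 bp and 47.3% at a CpG ratio of 0.75, and 61.5% to 68.6% when 1 library was left out. The CTCF share (1.40%) was 0.766% to 1.46% when 1 library was left out. No DMSO value exists where no peak was called.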
